A study of Mus musculus with 5 samples.

Results

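Serpins are a superfamily of proteins that mostly block proteases, and all 62 genes whose symbol starts with Serpin were taken from the 28001 features of the unsorted dorsal skin libraries. Of these, 27 are clade B (Serpinb), 24 are clade A (Serpina) and 11 belong to other clades. Their level was followed across 16 groups of skin cells gated by marker genes and between mice of 2 genotypes. The mutant libraries came from Lepr-Cre;mTmG;Smo+/- female mice at postnatal day 46, and the control libraries from Lepr-Cre;mTmG female mice of the same age (titled WT; the protocol text writes Lepr-Cre;mTmG;Smo). A further library held GFP-positive cells sorted from Lepr-Cre;mTmG female mice at postnatal day 50. All groups therefore carry Lepr-Cre, which acts where the leptin receptor gene is expressed, and mTmG, a reporter that turns on GFP in cells where Cre has acted. Smo encodes Smoothened, the signal transducer of the Hedgehog pathway. The 2 libraries of each genotype are described as technical replicates, and whether they come from separate mice is not stated. The p-values by genotype below are therefore read as the spread between preparations and not between animals. Fits between groups use libraries of both genotypes, so the spread in them also holds genotype differences.

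A classical serpin offers a protease an exposed loop as bait, and when the loop is cut the serpin changes shape and locks the protease in an inactive covalent complex. Many clade A serpins are secreted, and in the liver they make up much of the protease inhibitor content of blood plasma. Clade B serpins mostly stay inside the cell, where several guard leukocytes and epithelia against their own granule proteases and cathepsins. A few family members no longer inhibit proteases: Serpinh1 (HSP47) is a chaperone of procollagen, and Serpinf1 (PEDF) is a secreted factor known for acting against new vessel growth. In skin, serpins balance the plasminogen activators and kallikreins that act on matrix and on the shedding of the outer layer.

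Counts are unique molecular identifiers (UMIs) from the ends of transcripts, so they are not scaled by gene length. The unsorted libraries kept 8545 and 8818 cells in mutants, and 8278 and 8400 cells in controls. Their totals over all deposited barcodes were 152475023 and 147245343 UMIs in mutants, and 163044933 and 171197845 UMIs in controls. Each pair of unsorted libraries shared between 117 and 192 barcodes. Each level below is in CPM, the UMIs of a gene scaled to the total UMIs summed over the gated cells of a library, so more cells with a transcript and more transcript per cell cannot be told apart. Smo itself was at 39.1 and 40.1 CPM in mutant papilla-like cells and at 35.2 and 35.3 CPM in controls, but a 3' tag cannot check an allele whose altered part is not given in the labels. A YFP feature was at 36.8 and 42.2 CPM in mutant papilla-like cells and at 0 UMIs in both control libraries. It was also at 41.9 and 27.8 CPM in mutant sheath-like and 21.9 and 20.9 CPM in mutant fibroblast-like cells. An eGFP feature was at 363 and 365 CPM in mutant and 64.2 and 66.0 CPM in control fibroblast-like cells. In papilla-like cells it was at 447 and 537 CPM in mutants and 528 and 550 CPM in controls.

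The gates require several markers of a cell type to be on in the same cell, and all 160 markers were found. They were named papilla-like (dermal papilla, the signalling mesenchyme at the base of the hair follicle), sheath-like (the contractile dermal sheath), fibroblast-like, mural-like (pericytes and vascular smooth muscle), blood and lymphatic endothelial-like, Schwann-like and melanocyte-like. Keratinocytes were gated as basal-like, suprabasal-like, upper follicle-like, bulge-like (bulge and germ of the hair follicle) and as cells that met both the suprabasal and upper follicle lists. Immune cells were gated as T or NK-like, myeloid-like and mast-like. No gating list holds a Serpin gene. Papilla-like cells numbered 679 and 637 in mutants, and 276 and 281 in controls, with median depths of 6162 and 5996 UMIs in mutants, and 6426 and 6966 UMIs in controls. Their summed UMIs were 5734867 and 5540687 in mutants, and 4316260 and 4248638 in controls. Mean depth per cell was therefore higher in controls than the medians show, and deep cells weigh more in the control sums.

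Serpin transcripts were unevenly spread over the family. No UMI was counted for 7 members (Serpinb3d, Serpina7, Serpinb9e, Serpinb9f, Serpina16, Serpina1f and Serpina1c), and 21 members had between 1 and 99 UMIs in all kept cells. A mean of 100 CPM or more in at least 1 gated group was reached by 13 members, another 14 peaked between 10 and 100 CPM, and 28 had UMIs but stayed under 10 CPM everywhere. Serpinb2 alone took 83.5% of all Serpin UMIs. Of the members that reached 100 CPM, 12 are reported here, in an epithelial set (Serpinb2, Serpinb5, Serpinb8), a mesenchymal and neural set (Serpine2, Serpinh1, Serping1, Serpinf1, Serpina3n), an immune set (Serpinb1a, Serpinb6b, Serpinb9) and the widely spread Serpinb6a, as the heat map of levels shows.

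**Figure D1:**
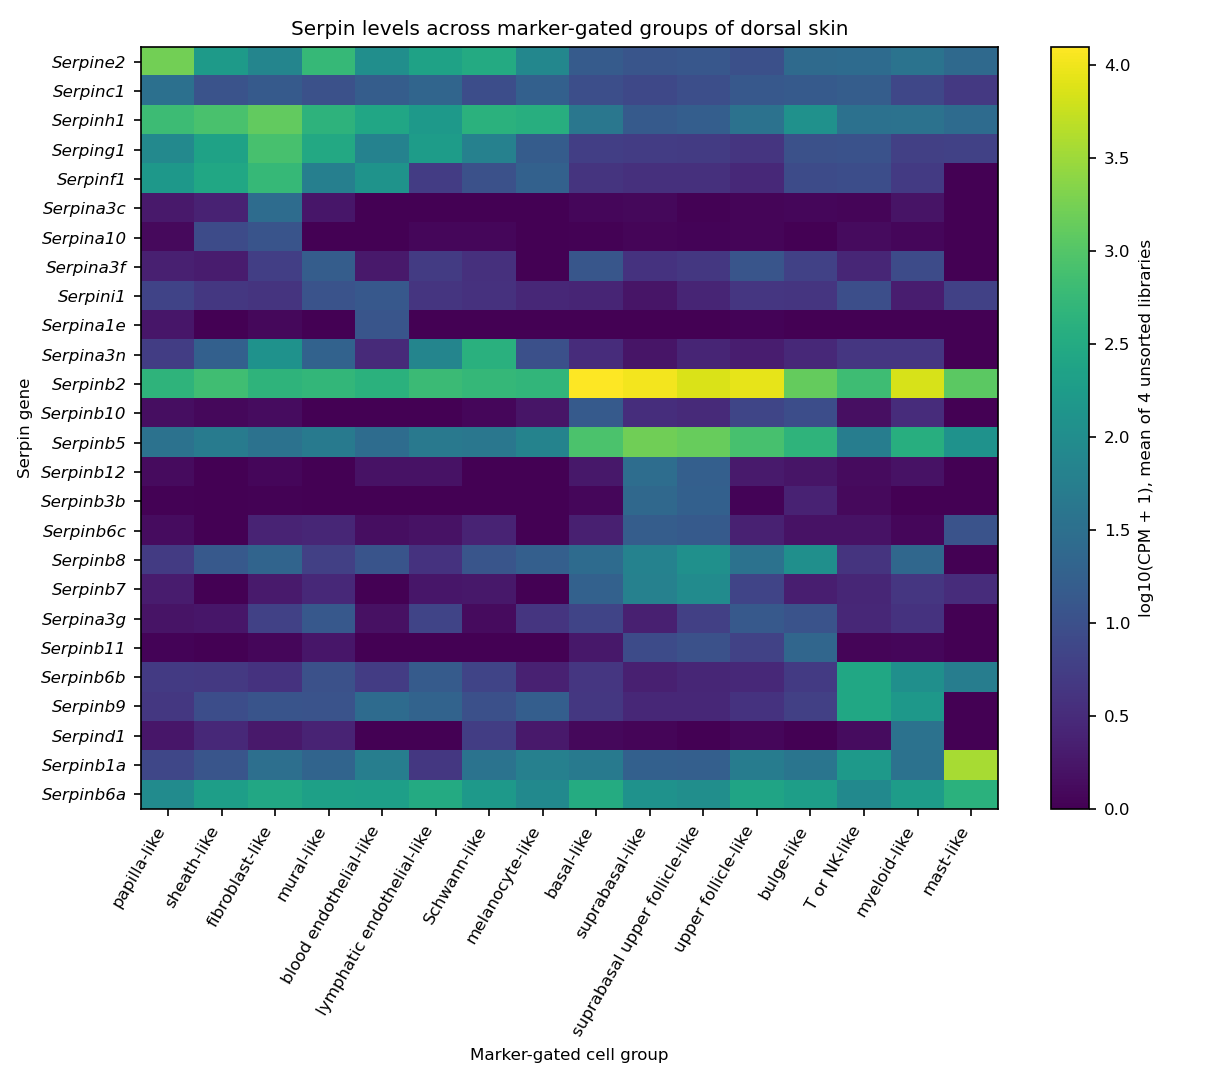
Mean level of the Serpins reported here that reached 10 CPM in some group, as log10(CPM + 1) over the 4 unsorted libraries, with genes in rows and marker-gated groups in columns. Serpinb2 was highest in basal-like cells (12472 CPM), Serpine2 in papilla-like cells (1688 CPM), Serpinh1 in fibroblast-like cells (1310 CPM) and Serpinb1a in mast-like cells (3605 CPM).

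Most members lie in 3 clusters of the GRCm38 genome. The clade B genes of chromosome 1 (chr1:106861173-107610484) include Serpinb5, Serpinb12, Serpinb3b, Serpinb11, Serpinb7, Serpinb2 and Serpinb8, a block of 11 annotated members. The clade A cluster (chr12:103614786-104414329) holds 23 members, and the clade B cluster of chromosome 13 (chr13:32842092-34002794) holds 15. Within these clusters, Serpinb3b and Serpinb3c overlap on the same strand over 7161 bases, Serpina1b and Serpina1d over 9999, and Serpina3m and Serpina3k over 7659. Counts of these near-identical neighbours are uncertain, since reads from one can be assigned to the other or dropped.

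The chromosome 1 genes carry the keratinocyte results, so the 250 bases upstream of the RefSeq start are shown for 5 of them (RefSeq, GRCm38.p6, each 5′ to 3′ on the gene's own strand). Serpinb2 (plus strand, chr1:107511173-107511422), Serpinb5 (plus, chr1:106860925-106861174) and Serpinb7 (plus, chr1:107422439-107422688) have in capitals the match to TGANTCA, the letters that AP-1 factors bind.
Serpinb2: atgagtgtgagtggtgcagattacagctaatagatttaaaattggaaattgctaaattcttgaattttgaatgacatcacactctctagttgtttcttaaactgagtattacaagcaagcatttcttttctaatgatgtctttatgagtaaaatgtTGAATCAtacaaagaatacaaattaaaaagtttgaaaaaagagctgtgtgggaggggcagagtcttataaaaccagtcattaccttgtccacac
Serpinb5: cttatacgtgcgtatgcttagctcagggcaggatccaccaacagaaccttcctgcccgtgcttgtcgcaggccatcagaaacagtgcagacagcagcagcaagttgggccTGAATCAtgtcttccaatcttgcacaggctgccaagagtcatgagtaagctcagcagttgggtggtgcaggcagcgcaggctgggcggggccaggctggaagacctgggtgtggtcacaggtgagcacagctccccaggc
Serpinb7: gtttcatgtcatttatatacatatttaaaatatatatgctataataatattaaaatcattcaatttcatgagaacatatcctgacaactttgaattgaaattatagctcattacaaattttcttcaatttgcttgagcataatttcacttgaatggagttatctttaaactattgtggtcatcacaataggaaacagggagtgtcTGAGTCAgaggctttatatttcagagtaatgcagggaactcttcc
Serpinb3b (minus, chr1:107161115-107161364) and Serpinb3c (minus, chr1:107278372-107278621) have in capitals the match to TATAAA, the core of a TATA box.
Serpinb3b: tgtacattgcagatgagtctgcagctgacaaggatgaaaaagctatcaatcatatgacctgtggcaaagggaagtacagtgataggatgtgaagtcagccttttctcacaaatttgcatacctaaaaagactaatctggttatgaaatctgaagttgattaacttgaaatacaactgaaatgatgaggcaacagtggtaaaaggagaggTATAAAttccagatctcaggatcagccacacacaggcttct
Serpinb3c: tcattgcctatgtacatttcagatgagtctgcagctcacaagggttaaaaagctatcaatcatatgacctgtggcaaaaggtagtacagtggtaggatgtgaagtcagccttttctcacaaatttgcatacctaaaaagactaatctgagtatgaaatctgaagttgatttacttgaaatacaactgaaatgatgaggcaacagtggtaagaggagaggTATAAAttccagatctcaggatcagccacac
The AP-1 letters were found upstream of all 7 plus-strand Serpinb genes of the cluster that have a RefSeq window (Serpinb5, Serpinb12, Serpinb11, Serpinb7, Serpinb2, Serpinb10 and Serpinb8), and upstream of 0 of the 4 minus-strand ones (Serpinb3a, Serpinb3d, Serpinb3b and Serpinb3c). Among all 32851 windows of that length, searched on both strands, 6.75% hold TGANTCA and 12.4% hold TATAAA. Of the 53 Serpin genes with a window, 11 hold TGANTCA and 14 hold TATAAA, among them Serpinb2, Serpinb7 and Serpinb12, so TATAAA does not set the minus-strand genes apart; in the Serpinb2 and Serpinb7 windows above it is not capitalised. The windows of Serpinb3b and Serpinb3c are nearly the same sequence, with 229 of 240 bases identical (95.4%) when shifted by 10 bases. The letters GACCACCCA, bound by GLI factors, are in 0.225% of all windows and in none of the 62 Serpin windows. A match is a description of the letters and not a bound site.

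Serpinb2 (PAI-2, an inhibitor of urokinase) was the most abundant Serpin of keratinocytes. Basal-like cells had 12745 and 12356 CPM in mutants and 12175 and 12613 CPM in controls, and suprabasal-like cells had 11190 and 10432 CPM in mutants and 10700 and 10375 CPM in controls. All 4 libraries lay close together in both groups. Bulge-like cells stood well below, at 1465 and 1476 CPM in mutants and 865 and 1483 CPM in controls. The difference between bulge-like and basal-like cells was −3.68 on the log2 scale (SE 0.09, adjusted p = 6.62e-16, edgeR quasi-likelihood test with library as a term).

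Every non-keratinocyte group also held Serpinb2 UMIs, and in most of these groups they stood in a similar ratio to keratin 14, a keratinocyte gene. Serpinb2 averaged between 405 and 686 CPM in papilla-like, sheath-like, fibroblast-like, mural-like, endothelial-like, Schwann-like, melanocyte-like and T or NK-like cells. The ratio of Serpinb2 to Krt14 was 2.104 in papilla-like, 2.14 in fibroblast-like, 2.12 in T or NK-like and 2.55 in blood endothelial-like cells, but 0.718 in melanocyte-like cells. In keratinocytes the same ratio ranged from 0.423 in bulge-like to 9.70 in suprabasal-like cells. Free or carried-over keratinocyte RNA was not tested as a source, and no expression of Serpinb2 is read from the non-keratinocyte groups. In myeloid-like cells Serpinb2 averaged 7108 CPM beside 2625 CPM of Krt14, so this value is not read as a myeloid level either.

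**Figure D2:**
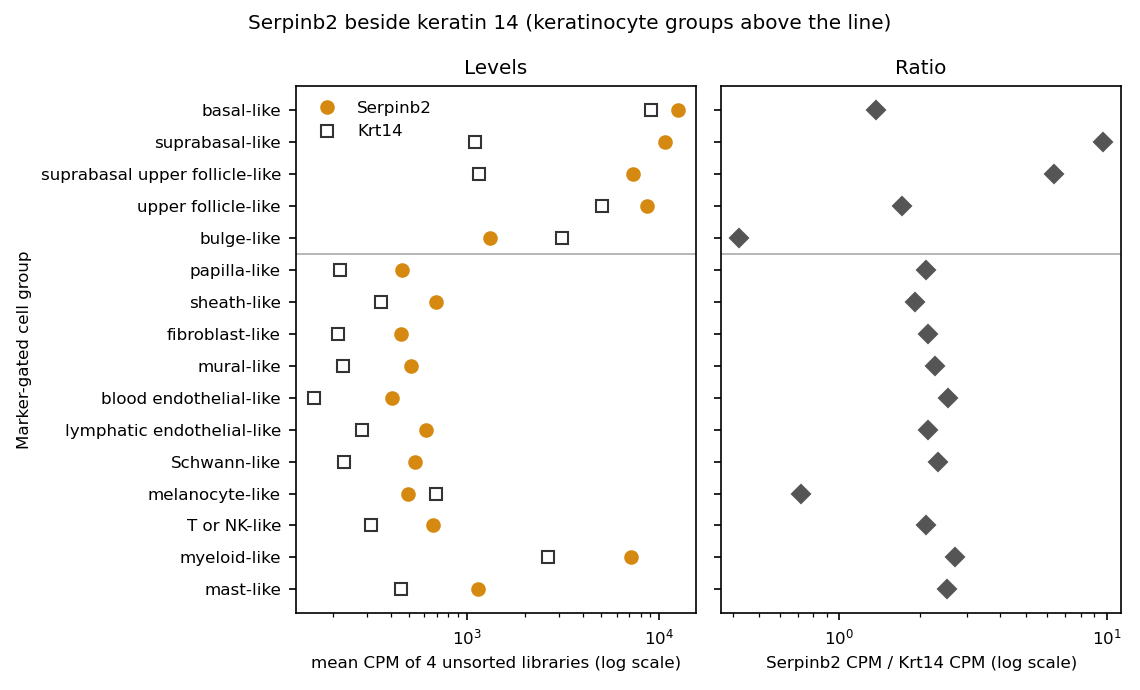
Serpinb2 and Krt14 in each gated group, with mean CPM over the 4 unsorted libraries (log scale) on the left and their ratio (log scale) on the right; keratinocyte groups are above the line. Outside keratinocytes and melanocyte-like cells (0.718), the ratio stayed between 1.91 and 2.71, while it ran from 0.423 to 9.70 among keratinocyte groups.

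Suprabasal-like cells differed from basal-like cells in most of the measured family. Of 28 members tested, 8 were higher and 12 lower in suprabasal-like cells at an adjusted p under 0.05 and at least a 2-fold change, where 25.3% of all genes tested were called (9.76% higher and 15.5% lower). All 8 higher members are clade B, but most members tested were clade B. Serpinb10, Serpinb1a, Serpinb6b, Serpinb1b and Serpinb6a of the same clade were called lower. Serpinb3b and Serpinb13 passed the low-count filter only through suprabasal-like cells, so only a higher call was possible for them. Serpinb5 (maspin) had 1577 and 1602 CPM in mutant and 1598 and 1600 CPM in control suprabasal-like cells, against 826 and 831 CPM in mutant and 888 and 881 CPM in control basal-like cells. Its libraries did not overlap between the layers, and the log2 difference was 1.13 (SE 0.03, adjusted p = 2.34e-11, edgeR).

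Serpinb12 averaged 27.6 CPM in suprabasal-like and 0.819 CPM in basal-like cells (log2 difference 5.29, SE 0.09). Serpinb7, whose loss in humans causes a palmoplantar keratoderma, averaged 62.0 and 17.4 CPM (log2 difference 2.05, SE 0.05). Serpinb8 averaged 64.2 and 25.6 CPM (log2 difference 1.55, SE 0.06), but lost the call in cells thinned to the same depth, at 0.99. Serpinb3b had a log2 difference of 7.22 (SE 0.15), and Serpinb6c, Serpinb11 and Serpinb13 had 3.78, 3.35 and 3.30. All of these lie in the chromosome 1 cluster except Serpinb6c of the chromosome 13 cluster.

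The 12 lower members came from several clades. Serpinb6a, a broad intracellular inhibitor, averaged 119 CPM in suprabasal-like and 325 CPM in basal-like cells (log2 difference −1.21, SE 0.04). The chaperone Serpinh1 averaged 13.6 and 41.5 CPM (log2 difference −1.38). Serpinb10 averaged 2.41 and 13.5 CPM (log2 difference −2.24). It lies next to Serpinb2, and in each layer it was far below that neighbour. Serpinb1a, an inhibitor of neutrophil proteases, averaged 17.0 and 47.9 CPM (log2 difference −1.26). Suprabasal-like cells were also deeper, and with cells thinned to the same 2000 UMIs, 11 of 16 tested members were called.

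Follicle keratinocytes had their own pattern. In bulge-like cells, 14 of 26 members differed from basal-like cells, 3 higher and 11 lower, where 33.2% of all genes tested were called (18.8% higher and 14.5% lower). Serpinb8 had 123 and 100 CPM in mutant and 103 and 111 CPM in control bulge-like cells, against 25.2 and 27.8 CPM in mutant and 26.1 and 23.3 CPM in control basal-like cells. All bulge-like libraries lay above all basal-like ones, with a log2 difference of 1.69 (SE 0.10, adjusted p = 4.25e-11, edgeR). Serpinb11 averaged 21.2 CPM in bulge-like and 0.849 CPM in basal-like cells (log2 difference 4.21, SE 0.29). Serpinh1 averaged 118 and 41.5 CPM (log2 difference 1.10), and falls under the 2-fold minimum without control replicate 1, at 0.97. Serpinb7 averaged 1.19 and 17.4 CPM (log2 difference −4.23), and Serpinb5 averaged 461 and 856 CPM (−1.31).

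Upper follicle-like cells were closer to basal-like cells, with 5 of 26 members called, 3 higher and 2 lower, where 6.59% of all genes tested were (4.31% higher and 2.28% lower). This depended on the gate, since 54.1% of upper follicle-like cells sat at the marker minimum. With 1 more marker, 13 of 26 members were called, 3 higher and 10 lower, beside 2157 of 12940 genes tested. Serpinb11 was among the higher ones, at 5.39 CPM in upper follicle-like and 0.849 CPM in basal-like cells (log2 difference 2.61). Serpinb7 and Serpinb10 were the lower ones, with log2 differences of −1.64 and −1.13. In cells that met both the suprabasal and the upper follicle lists, Serpinb8 reached 119 and 113 CPM in mutants and 113 and 103 CPM in controls, close to its bulge-like level. Serpinb5 averaged 1371 CPM there.

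In the mesenchyme, Serpine2 was the highest Serpin of papilla-like cells. It encodes protease nexin-1, a secreted inhibitor of thrombin, urokinase and tissue plasminogen activator that is known as a dermal papilla transcript. Papilla-like cells had 2167 and 1879 CPM in mutants and 1470 and 1235 CPM in controls, against 72.9 and 88.0 CPM in mutant and 66.4 and 56.4 CPM in control fibroblast-like cells. The lowest papilla-like library lay far above the highest fibroblast-like one, with a log2 difference of 4.24 (SE 0.10, adjusted p = 8.02e-07, edgeR).

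By the mean over the 4 libraries of both genotypes, the order of Serpine2 after papilla-like cells was mural-like (561 ± 143 CPM, SD, n = 4 libraries), Schwann-like (321 CPM), lymphatic endothelial-like (228 CPM), sheath-like (167 CPM), blood endothelial-like (106 CPM), melanocyte-like (76.5 CPM) and fibroblast-like cells (70.9 CPM). From mural-like cells (439 to 725 CPM) downward, the ranges of all neighbours in this order overlapped: Schwann-like (240 to 444 CPM), lymphatic endothelial-like (143 to 363 CPM), sheath-like (130 to 220 CPM), blood endothelial-like (39.0 to 186 CPM), melanocyte-like (45.2 to 96.5 CPM) and fibroblast-like cells (56.4 to 88.0 CPM). In the control libraries alone, blood endothelial-like cells lay below fibroblast-like ones. Sheath-like cells were 1.18 log2 units above fibroblast-like cells (SE 0.14, adjusted p = 1.18e-05, edgeR). Among keratinocytes, bulge-like cells had the most Serpine2, with 30.3 and 37.9 CPM in mutants and 14.7 and 17.3 CPM in controls.

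**Figure D3:**
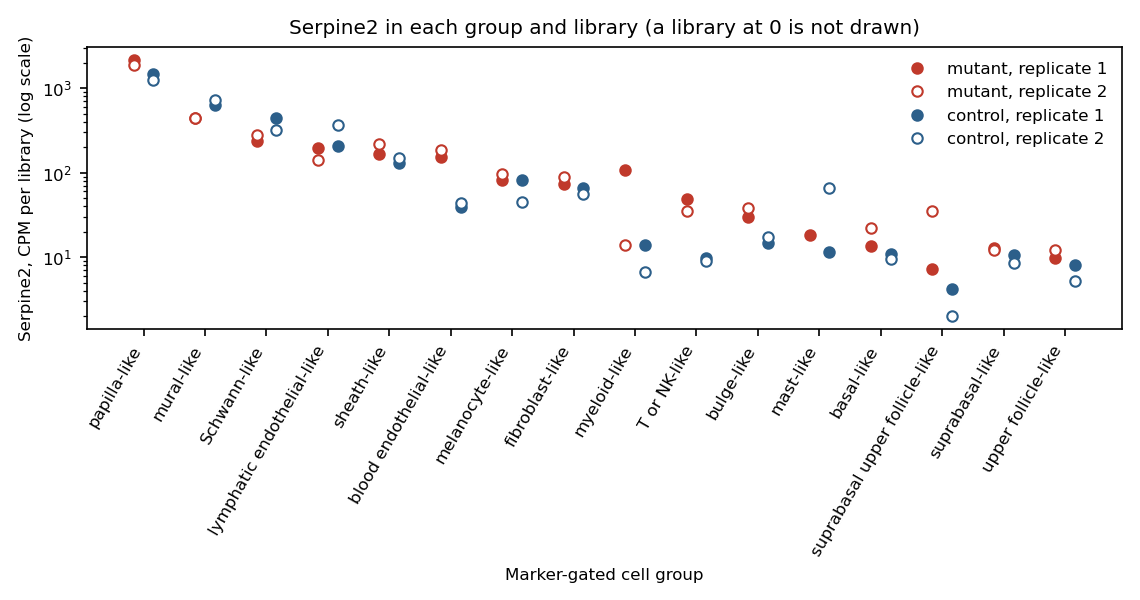
Serpine2 level in every gated group and unsorted library, in CPM on a log scale, with mutant libraries left of control libraries and groups ordered by their mean. Papilla-like libraries (1235 to 2167 CPM) sit above every library of every other group.

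The sorted GFP-positive library gave a separate view of the same transcript. Its 137 papilla-like cells held 262 Serpine2 UMIs, or 615 CPM (exact 95% Poisson interval 543 to 695 CPM, counting error only). The 205 sorted cells in no gate include the 191 that were too shallow to be gated, so they are not read as cells outside the papilla. They were at 581 CPM (494 to 678), an overlapping interval, and the 53 blood endothelial-like cells were at 292 CPM (226 to 372). In the sorted papilla-like cells Serpinh1 was at 660 CPM and Serping1 at 155 CPM. Serpinf1 was at 472 CPM there, against 222 and 242 CPM in mutant and 67.0 and 66.1 CPM in control unsorted papilla-like cells. Serpinb2 was at 23.5 CPM (11.3 to 43.2), against 429 to 499 CPM in the unsorted papilla-like cells. The sorted library was made with another chemistry and at another age, and 191 of its cells were too shallow to gate, so no test was made across the libraries.

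Among genes that reached 100 CPM in some group, 4 of the 5 that followed Serpine2 most closely over the 16 group means are reported here. They were Lrrc58 (Pearson r = 0.908), Mef2c (0.901), Thbd (0.898) and Sobp (0.891), out of 3861 genes compared. Thbd encodes thrombomodulin, a thrombin receptor of the clotting system. The means come from the same 4 libraries, and the correlations are given as a description.

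Fibroblast-like cells held most of the other secreted or secretory-pathway Serpins. Serpinh1 had 1236 and 1240 CPM in mutant and 1358 and 1405 CPM in control fibroblast-like cells, against 639 and 628 CPM in mutant and 689 and 655 CPM in control papilla-like cells. Serping1, which encodes the C1 inhibitor of the complement and kinin systems, had 808 and 809 CPM in mutant and 801 and 811 CPM in control fibroblast-like cells. It ranged only from 65.0 to 89.5 CPM in papilla-like cells. Serpinf1 averaged 561 CPM in fibroblast-like, 276 CPM in sheath-like, 150 CPM in papilla-like and 125 CPM in blood endothelial-like cells.

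Papilla-like cells differed from fibroblast-like cells in 13 of 19 members tested, where 26.9% of all genes tested were called (11% higher and 15.8% lower). Serpine2 was the 1 member called higher, and 12 were called lower. The log2 differences of the lower ones included −3.62 for Serping1 (SE 0.10), −2.46 for Serpinf1 (SE 0.33), −1.33 for Serpinh1 (SE 0.06) and −1.95 for Serpinb6a (SE 0.10). Serpina3n, a secreted inhibitor of leukocyte proteases, had a mean of 4.65 CPM in papilla-like cells, against 123 CPM in fibroblast-like ones (log2 difference −5.03, SE 0.18). The clade A members Serpina3c and Serpina10 followed it, with log2 differences of −5.07 and −5.39. Both passed the low-count filter only through fibroblast-like cells, so only a lower call was possible for them. Papilla-like cells may carry at most 3 of the 10 fibroblast markers by the gate, so collagen-rich cells are kept out of that group.

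Sheath-like cells lay between these groups. Of 19 members, 1 was called higher and 8 lower than in fibroblast-like cells, where 4.24% of all genes tested were called higher and 3.89% lower (8.13% in all). Serpinh1 averaged 827 CPM and Serping1 230 CPM in sheath-like cells, and the log2 differences from fibroblast-like cells were −0.73 (under the 2-fold minimum) and −1.95. Serpina3n averaged 17.1 CPM in sheath-like cells, with a log2 difference of −3.12 (SE 0.23). Fitting the control libraries alone, 6 members were called.

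Serpina3n had its highest mean in Schwann-like cells, at 340 and 307 CPM in mutants and 554 and 362 CPM in controls. Serpinh1 in the same cells was even across libraries, from 401 to 419 CPM. The lymphatic endothelial-like cells held 70.9 CPM of Serpina3n on average, and their blood endothelial-like counterparts 2.09 CPM.

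In the vessels, 5 of 11 members differed between lymphatic and blood endothelial-like cells, where 22% of all genes tested were called (11.4% higher and 10.6% lower). Serpina3n (log2 difference 5.02, SE 0.40), Serping1 (1.52, SE 0.17) and Serpine2 (1.06, SE 0.32) were higher in lymphatic endothelial-like cells by edgeR. Serpinf1 averaged 4.44 CPM in lymphatic and 125 CPM in blood endothelial-like cells (log2 difference −4.50, SE 0.33). Serpine2 lost its call without control replicate 1 (0.79) or control replicate 2 (0.56). Its difference came from the control libraries, and in the mutant libraries the ranges of lymphatic and blood endothelial-like cells overlapped. The value of 1.06 thus averages genotypes that differ, by −2.79 log2 units in the test of genotype effects below.

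Immune cells had a clade B set of their own. Mast-like cells, only 12 to 19 per library and therefore described without a test, had Serpinb1a at 2181 and 3792 CPM in mutants and 4006 and 4440 CPM in controls. Serpinb1a inhibits neutrophil elastase, cathepsin G and chymase-like proteases. T or NK-like cells had Serpinb6b at 264 and 285 CPM in mutants and 279 and 253 CPM in controls. Serpinb9, an inhibitor of granzyme B, was at 280 and 313 CPM in mutant and 251 and 234 CPM in control T or NK-like cells. Both members were also present in myeloid-like cells, at means of 109 and 150 CPM.

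Serpinb2 reached a mean of 100 CPM in all 16 groups, but its level outside keratinocytes is not read as expression. After it, Serpinb6a was the most widespread member, with a mean of at least 100 CPM in 13 groups. Its mean was 417 CPM in mast-like, 325 CPM in basal-like and 323 CPM in lymphatic endothelial-like cells. Papilla-like (93.8 CPM), melanocyte-like (87.0 CPM) and T or NK-like cells (86.8 CPM) were the ones under 100 CPM. Serpind1 (heparin cofactor II, a thrombin inhibitor) peaked in myeloid-like cells at 34.4 CPM, and Serpinc1 (antithrombin) in papilla-like cells at 31.5 CPM.

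Genotype was compared in 15 groups, for 38 members and 240 combinations of member and group. Mutant cells differed from control cells in 21 combinations, 18 higher and 3 lower, at an adjusted p under 0.05 and at least a 2-fold change, where 1.53% of all gene and group combinations were called (1.02% higher and 0.505% lower). These calls covered 11 members and 8 groups. They were Serpinf1, Serpine2, Serping1, Serpinb1a, Serpinb8, Serpinb9, Serpina3f, Serpina12 and Serpind1 on the higher side, and Serpinb3b and Serpinb3c on the lower side. Serpinb3c entered its test through the control libraries alone, so only a lower call was possible there. Serpind1 in fibroblast-like, Serpina12 in suprabasal-like and Serpinf1 in upper follicle-like cells entered through the mutant libraries alone. The same held for Serpina3f in upper follicle-like cells, T or NK-like cells and cells of both the suprabasal and upper follicle lists. For these only a higher call was possible, so the low-count filter partly sets the split by direction. The abundant members of keratinocytes did not pass: in basal-like cells Serpinb2 had a log2 fold change of −0.01 (adjusted p = 0.83), and in suprabasal-like cells Serpinb2 had 0.03 and Serpinb5 −0.01 (adjusted p = 0.695 and 0.862, edgeR). Upper follicle-like cells were less even, with Serpinb2 at 11731 and 8785 CPM in mutants and 7406 and 6684 CPM in controls. These libraries did not overlap, but the difference was not called.

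**Figure D4:**
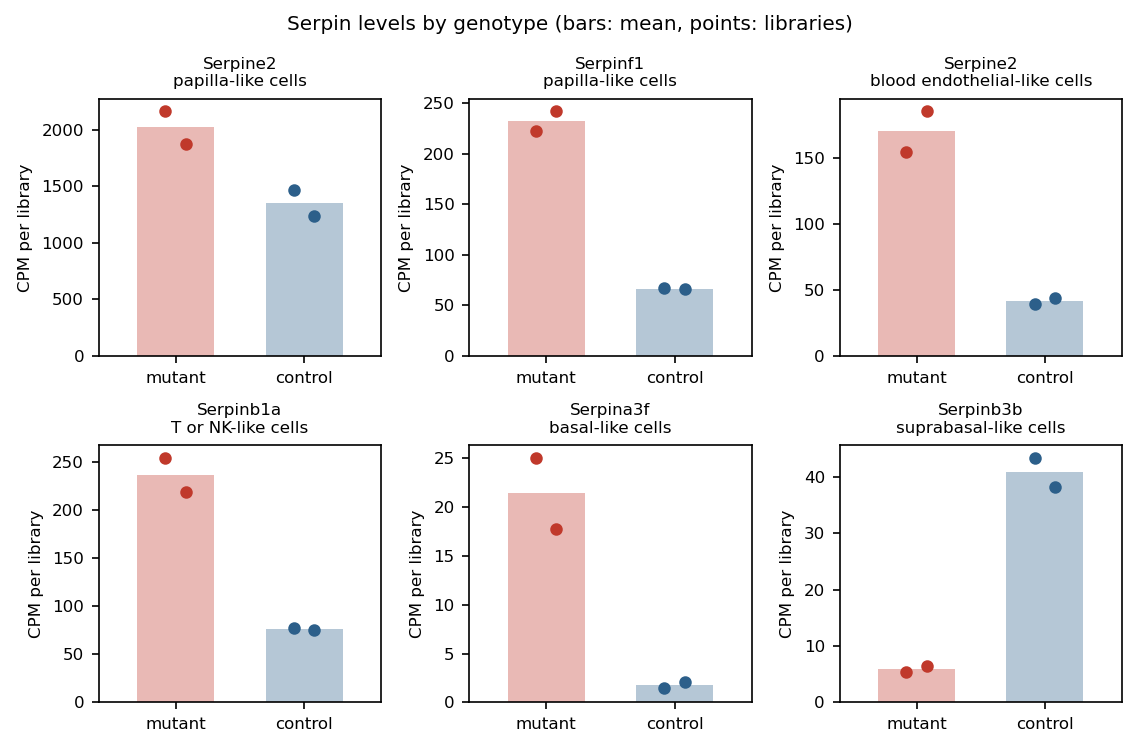
CPM per library for 6 combinations of Serpin and gated group, with mutant left of control; bars are means and points are the 2 libraries of each genotype. The libraries of the genotypes do not overlap in any panel; Serpinb3b is lower and the other 5 are higher in mutants.

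In papilla-like cells, 4 of 15 members were called, all higher in mutants, where 5.05% of all genes tested were called and 3.41% were called higher. The median log2 fold change over the 15 members was 0.38, against −0.0047 over all genes tested. It depended on the setting, and was −0.0065 with a stricter cell filter, −0.0116 over the 9 members tested at equal depth, 0.18 in cells of at most 15000 UMIs and 0.89 without control replicate 1. Serpinf1 had 222 and 242 CPM in mutants, against 67.0 and 66.1 CPM in controls. The libraries did not overlap, and the log2 fold change was 1.83 (SE 0.08, adjusted p = 1.7e-11, edgeR quasi-likelihood test). In cells thinned to 2000 UMIs the levels lay closer, with 235 and 244 CPM in mutants and 96 and 80 CPM in controls. The genotype effect on Serpinf1 was larger in papilla-like than in fibroblast-like cells, where its log2 fold change was 0.18, by 1.67 log2 units (SE 0.09, adjusted p = 1.06e-10).

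The other 3 called members of papilla-like cells were scarce there. Serpinb1a had 13.4 and 6.50 CPM in mutants and 3.24 and 2.12 CPM in controls (log2 fold change 1.91, SE 0.38, adjusted p = 0.00115), and was not called without mutant replicate 1, at 1.29. Serpinb8 had 5.58 and 5.78 CPM in mutants and 2.32 and 2.82 CPM in controls (1.16, SE 0.33, adjusted p = 0.0165). Serpinb9 had 5.58 and 4.15 CPM in mutants and 3.01 and 1.65 CPM in controls (1.08, SE 0.38, adjusted p = 0.0487), which rests on 32 and 23 UMIs in mutants and 13 and 7 UMIs in controls. Serpinb8 lost its call without control replicate 1, mutant replicate 1 or mutant replicate 2, and Serpinb9 without control replicate 2, mutant replicate 1 or mutant replicate 2.

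Serpine2 in papilla-like cells, whose per-library levels are given above, was higher in mutants by 0.61 log2 units (SE 0.08, adjusted p = 1.23e-05), under the 2-fold minimum. In the papilla-like cells of at most 15000 UMIs it had 1818 and 1676 CPM in mutants and 844 and 904 CPM in controls, a log2 fold change of 1.02 that was called. The mean over cells, each weighted equally, was 1768 and 1605 CPM in mutants and 993 and 987 CPM in controls. Serpinh1 had a log2 fold change of −0.06, whose sign turned with cells of equal depth (0.0081) and with cells of at most 15000 UMIs (0.11).

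Marker lists moved with these values. In papilla-like cells the 10 fibroblast markers summed to 2191 and 2315 CPM in mutants and 1348 and 1240 CPM in controls, and 6 of the 10 were called higher. The 10 papilla markers summed to 2063 and 2164 CPM in mutants and 2662 and 2635 CPM in controls, with 6 called higher and 1 lower. The sum thus moved against most of its called markers and follows the abundant ones. Corin, a papilla marker, had 50.2 and 53.4 CPM in mutants and 10.7 and 13.9 CPM in controls. Of the 1873 papilla-like cells, 56.0% sat exactly at the minimum of 2 markers, so the gate may hold different cells in each genotype. Sheath markers summed to 126 and 122 CPM in mutants and 51.7 and 39.3 CPM in controls, with 4 of 6 tested called higher. All 3 erythroid markers tested were also called higher. The part of these shifts in the Serpin results was not tested.

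Other proteases and inhibitors of papilla-like cells were read from lists chosen with earlier results known, and their counts stand beside the 3.41% of all genes tested that were called higher in these cells. Of the serine proteases and their receptors, 4 of 17 tested were called, all higher in mutants: the complement proteases C1s1 (log2 fold change 1.91) and C1ra (1.59), Prss23 (1.48) and the thrombin receptor F2r (1.07). C1s1 and C1ra are the targets of the C1 inhibitor Serping1, which itself had 87.0 and 89.5 CPM in mutants and 88.3 and 65.0 CPM in controls. Of the cysteine cathepsins, 3 of 9 were higher (Ctsc 1.32, Lgmn 1.16 and Ctsk 1.08), and of the other protease inhibitors 3 of 13 (Pi16 1.55, Timp3 1.16 and Pi15 1.06). None of the 18 genes of collagen folding, the setting in which Serpinh1 works, was called by edgeR, and Serpinh1 itself did not pass. Pi15 was called lower in mutant fibroblast-like (−1.13), sheath-like (−1.98) and mural-like cells (−2.22).

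Fibroblast-like cells had 1 of 26 members called, where 1.47% of all genes tested were called and 1.09% were called higher. Serpind1 was counted with 25 and 22 UMIs in mutants and 1 and 4 UMIs in controls (log2 fold change 2.29, SE 0.58, adjusted p = 0.0195). It passed the low-count filter through the mutant libraries alone, so only a higher call was possible. It was not called without control replicate 1 (1.66), mutant replicate 1 (2.18) or mutant replicate 2 (2.38), or by DESeq2. Serpinh1 fell short of the 2-fold minimum at −0.12 (adjusted p = 0.0459), and Serping1 was level across the 4 libraries.

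Blood endothelial-like cells had 1 of 10 members called, where 0.443% of all genes tested were called and 0.27% were called higher. Serpine2 had 155 and 186 CPM in mutants and 39.0 and 43.8 CPM in controls, with no overlap (log2 fold change 2.04, SE 0.27, adjusted p = 0.00012). The call was lost with a stricter gate (0.80), a looser gate (0.79) and in cells of at most 15000 UMIs (2.42). The group held 49 and 72 cells in mutants and 38 and 44 in controls, and the mutant libraries were high in different depth classes. In cells of more than 15000 UMIs Serpine2 had 32.6 and 387 CPM in mutants and 62.2 and 47.4 CPM in controls, with overlap, and in shallower cells 276 and 85.3 CPM in mutants and 20.2 and 41.1 CPM in controls. Fibroblast markers summed to 330 and 824 CPM in mutant and 150 and 164 CPM in control blood endothelial-like cells, and 2 of 4 tested were called higher. Pericyte and vascular smooth muscle markers summed to 26.5 and 29.3 CPM in mutants and 181 and 187 CPM in controls, and the 1 tested was called lower. Sheath markers summed to 185 and 215 CPM in mutants and 231 and 611 CPM in controls, with 1 of 4 called lower, and papilla markers to 151 and 197 CPM in mutants and 281 and 92.3 CPM in controls, with neither of the 2 tested called. The part of these lists was not tested. Plat, the tissue plasminogen activator that Serpine2 can inhibit, had 173 and 127 CPM in mutants and 72.4 and 62.3 CPM in controls (log2 fold change 1.16, adjusted p = 0.0328). This was not particular to these cells. Plat had 106 and 97.5 CPM in mutant and 50.5 and 59.9 CPM in control fibroblast-like cells. In lymphatic endothelial-like cells it had 162 and 187 CPM in mutants and 100 and 133 CPM in controls. In sheath-like and mural-like cells its libraries overlapped between genotypes. In lymphatic endothelial-like cells Serpine2 had 198 and 143 CPM in mutants and 208 and 363 CPM in controls (−0.70, adjusted p = 0.0146), under the 2-fold minimum. The genotype effect in lymphatic endothelial-like cells was below that in blood endothelial-like cells by 2.79 log2 units (SE 0.34, adjusted p = 0.00059).

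Basal-like keratinocytes had 3 of 30 members called, all higher in mutants, where 2.34% of all genes tested were called and 1.97% were called higher. Serpina3f, one of the tandem copies of mouse clade A3, had 25.1 and 17.8 CPM in mutants and 1.45 and 2.14 CPM in controls. The libraries stood well apart, with 871 and 611 UMIs in mutants and 78 and 120 UMIs in controls (log2 fold change 3.54, SE 0.18, adjusted p = 8.18e-08). Its neighbours Serpina3g and Serpina3i had log2 fold changes of −0.04 and 0.05 (adjusted p = 0.851 and 0.814), and neither passed.

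Serpina3f was called higher in mutants in 3 further groups. In each of them it passed the low-count filter through the mutant libraries alone, so only a higher call was possible. Upper follicle-like cells had 5.82 and 36.2 CPM in mutants and 0.974 and 0.601 CPM in controls (log2 fold change 4.70, SE 0.88, adjusted p = 0.0179), with mutant replicate 2 far above mutant replicate 1. In cells that met both the suprabasal and upper follicle lists it was counted with 17 and 42 UMIs in mutants and 1 and 0 UMIs in controls (adjusted p = 0.0381), and the call was lost without control replicate 2. T or NK-like cells had 11 and 16 UMIs in mutants and 2 and 4 UMIs in controls (2.24, SE 0.57, adjusted p = 0.00745), and the call was lost without control replicate 1 (1.88) or mutant replicate 2 (2.01). Suprabasal-like cells, at 5.02 and 3.46 CPM in mutants and 2.58 and 0.996 CPM in controls, did not pass (1.25, adjusted p = 0.0702). The effect there was below that in basal-like cells by 2.29 log2 units (SE 0.42, adjusted p = 0.0188). Fibroblast-like cells had 4.80 and 6.15 CPM in mutants and 5.14 and 3.11 CPM in controls (0.45, adjusted p = 0.29).

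The other 2 called members of basal-like cells were at a low level there and had their highest means in fibroblast-like cells. Serpinf1 had 4.63 and 5.04 CPM in mutants and 1.45 and 1.55 CPM in controls (log2 fold change 1.66), and Serping1 had 8.75 and 5.60 CPM in mutants and 2.73 and 2.33 CPM in controls (1.47). In the same cells the fibroblast markers summed to 474 and 419 CPM in mutants and 272 and 297 CPM in controls, and 8 of 10 were called higher. Upper follicle-like cells, with 2 of 23 members called where 0.646% of all genes tested were (0.434% higher), also had a call for Serpinf1. It had 2.91 and 3.96 CPM in mutants and 0.556 and 0.601 CPM in controls (2.54, SE 0.47, adjusted p = 0.0174), and was not called without mutant replicate 2 (2.31). There Serpinf1 passed the low-count filter through the mutant libraries alone, so only a higher call was possible. The fibroblast markers there summed to 298 and 310 CPM in mutants and 170 and 247 CPM in controls. How far carried-over fibroblast RNA enters these values was not tested.

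Suprabasal-like cells had 3 of 28 members called, 1 higher and 2 lower, where 0.966% of all genes tested were called (0.733% higher and 0.233% lower). Serpinb3b, a mouse member of the group of human SERPINB3 and SERPINB4 that inhibit cysteine and chymotrypsin-like proteases, had 5.31 and 6.54 CPM in mutants, against 43.4 and 38.2 CPM in controls. Both mutant libraries lay far below both controls (log2 fold change −2.79, SE 0.11, adjusted p = 4.61e-07). Its overlapping neighbour Serpinb3c, whose upstream sequence is nearly identical as shown above, had 0 and 0 UMIs in mutants and 21 and 24 UMIs in controls. With the mutants set to 3 counts over the group, it was at least 10.4-fold lower in mutants (adjusted p = 0.00264). Serpinb3c passed the low-count filter through the control libraries alone, so only a lower call was possible. As the genes overlap, this call is not read as support apart from that of Serpinb3b. In the same cells, fibroblast markers summed to 367 and 213 CPM in mutants and 152 and 154 CPM in controls, with 8 of 10 called higher. Basal markers summed to 2106 and 2102 CPM in mutants and 2775 and 2899 CPM in controls, with 0 of 8 called by edgeR, and suprabasal markers to 24709 and 26079 CPM in mutants and 23496 and 24016 CPM in controls, also with 0 of 8 called. Among T or NK and among pericyte and smooth muscle markers, 1 of 8 and 1 of 4 tested were called lower. The part of these lists was not tested.

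In cells that met both the suprabasal and upper follicle lists, 2 of 20 members were called, 1 in each direction, where 0.165% of all genes tested were called (0.0929% higher and 0.0723% lower). Serpinb3b had 4.48 and 2.14 CPM in mutants and 26.8 and 35.7 CPM in controls (−3.27, SE 0.30, adjusted p = 0.00291). Serpina12 (vaspin, described as an inhibitor of kallikrein 7) was counted in suprabasal-like cells with 31 and 15 UMIs in mutants and 6 and 1 UMIs in controls (3.19, SE 0.62, adjusted p = 0.0112). It passed the low-count filter through the mutant libraries alone, so only a higher call was possible. In the cells of both lists it was at 20.2 and 3.09 CPM in mutants and 9.60 and 2.01 CPM in controls, with overlap and no call (adjusted p = 0.707).

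In T or NK-like cells, 5 of 19 members were called, all higher in mutants, where 4.04% of all genes tested were called and 2.31% were called higher. Serpinb1a had 255 and 219 CPM in mutants, against 77.6 and 75.2 CPM in controls. The libraries did not overlap (log2 fold change 1.56, SE 0.08, adjusted p = 2.74e-10), and the call held in each fit without a library. Serpinb6b and Serpinb9, the other abundant Serpins of these cells, had log2 fold changes of −0.03 (adjusted p = 0.799) and 0.22 (adjusted p = 0.0132). From the list of leukocyte and mast cell proteases, Gzma, Mcpt4 and Prtn3 were called. Gzma had 30.3 and 22.3 CPM in mutants and 4.71 and 12.4 CPM in controls (1.52). Mcpt4, a mast cell chymase, had a log2 fold change of 1.44, and Prtn3, a neutrophil protease, of −1.20. Gzmb (granzyme B), the target of Serpinb9, was not called, at 213 and 241 CPM in mutants and 204 and 194 CPM in controls.

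Beside the Serpinb1a result, T or NK markers summed to 4239 and 4145 CPM in mutants and 4926 and 4832 CPM in controls. Mast markers summed to 36.1 and 41.8 CPM in mutants and 26.6 and 26.8 CPM in controls, with 1 of 3 tested called higher. Cycling markers summed to 89.9 and 92.9 CPM in mutants and 45.6 and 48.2 CPM in controls, with 2 of 6 called higher. Their part was not tested.

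Beside Serpina3f, given above, the remaining called members of T or NK-like cells had their highest means in other groups. These were papilla-like cells for Serpine2 and fibroblast-like cells for Serpinf1 and Serping1. Serpine2 had 48.6 and 35.7 CPM in mutants and 9.82 and 8.95 CPM in controls (log2 fold change 2.09, SE 0.18, adjusted p = 1.53e-07). Serpinf1 had 12.9 and 13.0 CPM in mutants and 3.48 and 3.24 CPM in controls (1.87), and Serping1 had 17.8 and 11.7 CPM in mutants and 4.91 and 5.14 CPM in controls (1.47). Both lost their call with a stricter cell filter, at 0.91 and 0.42. In the same cells the fibroblast markers summed to 670 and 799 CPM in mutants and 343 and 332 CPM in controls, and the papilla markers to 41.3 and 29.9 CPM in mutants and 20.5 and 11.2 CPM in controls. The part of other cells' RNA in these values was not tested.

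Whether the genotype effect itself differed between neighbouring groups was tested in 6 pairs of groups, with the library kept as a term. Between papilla-like and fibroblast-like cells, 3 of 19 members differed in their genotype effect, where 4.4% of all genes tested did. Serpinf1, given above, kept this call under 11 of 11 other settings, with differences from 1.11 to 1.71 log2 units. The difference for Serpinb1a was 1.76 (SE 0.55, adjusted p = 0.0347) and that for Serpinb8 1.29 (SE 0.33, adjusted p = 0.0115). Serpinb1a lost its call without mutant replicate 1 (adjusted p = 0.296), control replicate 1 (adjusted p = 0.148) or control replicate 2 (adjusted p = 0.324) in edgeR, and Serpinb8 lost its call without any 1 of the 4 libraries, at 1.21 to 1.34.

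Between suprabasal-like and basal-like cells, 1 of 28 members differed in its genotype effect, where 0.147% of all genes tested did. This was Serpina3f (−2.29, SE 0.42, adjusted p = 0.0188), which lost its call without control replicate 1 (−1.19). Between lymphatic and blood endothelial-like cells, 1 of 11 members differed, where 0.0645% of all genes tested did. This was Serpine2 (−2.79, SE 0.34, adjusted p = 0.00059), whose call held without any 1 library and was lost with a stricter gate (−1.23), a looser gate (−1.12) and a stricter cell filter (−3.98). In the remaining 3 pairs edgeR called no member. The shares of all genes called there were 0.484% between sheath-like and fibroblast-like, 0.0151% between upper follicle-like and basal-like and 0.119% between bulge-like and basal-like cells. At an unadjusted p under 0.05 there were 1 of 19 members in the sheath pair, where 8.04% of all genes tested passed that threshold, 4 of 26 in the upper follicle pair (10.1%) and 5 of 26 in the bulge pair (6.56%).

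In 7 groups no member was called by edgeR or by DESeq2 (sheath-like, mural-like, lymphatic endothelial-like, Schwann-like, melanocyte-like, bulge-like and myeloid-like cells). Their background was between 0% and 1.58% of all genes tested, namely 1.58% in sheath-like, 0.217% in mural-like, 0.719% in lymphatic endothelial-like, 0.247% in Schwann-like, 0.126% in melanocyte-like and 0.386% in bulge-like cells, with 0% in myeloid-like cells. At an unadjusted p under 0.05 the counts, in the same order, were 1 of 9, 2 of 7, 6 of 10, 5 of 13, 0 of 5, 4 of 13 and 3 of 12 members tested. Over all genes tested, the shares at that unadjusted threshold were 13.7%, 10.1%, 14.1%, 10.2%, 7.94%, 8.16% and 5.65%. They held between 114 (melanocyte-like) and 925 (Schwann-like) gated cells each, against 203 in blood endothelial-like cells, where a member was called.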

How the data were processed

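The authors deposited tables of unnormalized UMI counts (genes by cells) for 4 unsorted and 1 sorted library of mouse dorsal skin. Per the file headers the unsorted matrices came from Cell Ranger 3.1.0, and per the submitters' processing notes Cell Ranger 2.1.1 and 3.1.0, Seurat 3.2.2 and Scanpy 1.6.0 were used with mm10/GRCm38. Members were chosen by symbol, and the members, gene lists and gate thresholds were chosen with earlier results of these data known. Of the 62 members, 61 matched the GENCODE annotation of GRCm38 by identifier, and 61 are among the 31054 features of the sorted library.

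Unsorted cells were kept with 500 to 8000 genes and at most 10% mitochondrial UMIs, and sorted cells with at least 300 genes. For gating, each cell was thinned to 2000 UMIs, which left out 1464 of 34041 kept cells, and a marker was on if it had a UMI and exceeded its mean share over the cells. A gate needed 3 markers of its list (2 for papilla; 4 for fibroblast, lymphatic endothelial, and Langerhans and dendritic cells), with at most 3 fibroblast markers in papilla-like cells, at most 1 mural marker in sheath-like cells, at most 2 lymphatic markers in blood endothelial-like cells, and at most 2 keratinocyte markers outside keratinocytes. Of the kept cells, 8121 met no list and 1254 met several and were left out; no doublet caller was run. Symbols listed for 2 identifiers were summed where marker lists were added up.

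All UMIs of the gated cells were summed per library and group. Groups with at least 20 cells in each library were tested with edgeR 4.0.16 in R 4.3.3 (quasi-likelihood test, TMM factors, filterByExpr, Benjamini-Hochberg adjustment over all genes tested), by genotype alone or, between groups, with library as a term. The difference of genotype effects between groups, in the same model, was added after the data had been seen. A call needs an adjusted p under 0.05 and a change of at least 1 on the log2 scale in either direction. The steps were tested on simulated data. DESeq2 1.42.0 and the other alternatives are described in the closing section. Members named are those called by genotype, those of at least 100 CPM in a group, and the highest of each group; members outside this rule were named after their values were seen. Of the other lists, at most 4 called genes per list and comparison are named, and the genes most like Serpine2 were ranked by the correlation of log2(CPM + 1) of group means. Upstream windows are 250 bases from RefSeq. Results of 2 genes are not reported here, although their values enter the counts given.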

Additional observations from a re-analysis of the deposited data

Results flagged for a closer look

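For 5 combinations of member and group pair, the genotype effects (mutant over control, log2) differed between the groups by a direct test in edgeR. Between papilla-like and fibroblast-like cells, the effect on Serpinf1 was larger in papilla-like cells by 1.67 (SE 0.09, adjusted p = 1.06e-10), that on Serpinb1a by 1.76 (SE 0.55, adjusted p = 0.0347) and that on Serpinb8 by 1.29 (SE 0.33, adjusted p = 0.0115). These were 3 of 19 members tested, where 4.4% of all genes tested were called. Between suprabasal-like and basal-like cells, the difference for Serpina3f was −2.29 (SE 0.42, adjusted p = 0.0188), which was 1 of 28 members where 0.147% of all genes were called. Between lymphatic and blood endothelial-like cells, the difference for Serpine2 was −2.79 (SE 0.34, adjusted p = 0.00059), which was 1 of 11 members where 0.0645% of all genes were called. The libraries of each pair are shared by its groups and were kept as a term in the model. Of these, the Serpinf1 difference kept its call under 11 of 11 other settings, and the other 4 each lost theirs under some. DESeq2 was not run for this test.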

How the results depend on the processing

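The 21 genotype calls became 20 with RLE size factors, 15 with DESeq2, 28 with no filter on low counts, 16 with a stricter gate (1 more marker; 12 groups), 23 with a looser gate (14 groups) and 13 with a stricter cell filter (10 groups, which otherwise hold 20). Settings added after the data were seen gave 9 in cells of equal depth and 10 in cells of at most 15000 UMIs, both with fewer genes tested. Leaving out 1 library gave 23 to 27; the lone library of an arm is then assumed to vary like the other arm. By group, counts that moved beyond 1.5 times were these. DESeq2 gave 2 in papilla-like, 0 in upper follicle-like and 0 in fibroblast-like cells. No filter gave 5 in cells of both the suprabasal and upper follicle lists, 0 in fibroblast-like, 3 in bulge-like, 1 in lymphatic, 2 in papilla-like and 3 in myeloid-like cells. The stricter gate gave 0 in cells of both lists, 2 in papilla-like, 0 in upper follicle-like, 0 in blood endothelial-like and 2 in fibroblast-like cells. The looser gate gave 1 in papilla-like, 6 in upper follicle-like and 0 in blood endothelial-like cells. The stricter cell filter gave 2 in T or NK-like, 0 in fibroblast-like, 0 in upper follicle-like and 1 in cells of both lists. Equal depth gave 0 in fibroblast-like, 1 in papilla-like, 0 in cells of both lists, 0 in upper follicle-like, 1 in suprabasal-like and 0 in blood endothelial-like cells. Cells of at most 15000 UMIs gave 2 in papilla-like and 0 in upper follicle-like, suprabasal-like, blood endothelial-like, fibroblast-like cells and cells of both lists. The cause was not tested.

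Leave-one-out ranges were 1 to 4 in papilla-like, 0 to 1 in fibroblast-like, 1 to 2 in blood endothelial-like, 0 to 2 in lymphatic, 3 to 5 in basal-like, 3 to 7 in suprabasal-like, 1 to 5 in cells of both lists, 2 to 4 in upper follicle-like, 1 to 3 in bulge-like, 4 to 5 in T or NK-like and 0 to 1 in myeloid-like cells, and 0 to 0 in the sheath-like, mural-like, Schwann-like and melanocyte-like ones.

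With the replicate number as a block there were 26 genotype calls, with 6 in suprabasal-like, 1 in myeloid-like and 1 in bulge-like cells. Over all genes tested, the block gave 73 calls against 7 in mural-like and 50 against 0 in myeloid-like cells. It gave 128 against 116 in suprabasal-like and 62 against 70 in upper follicle-like cells. Deviations of same-numbered libraries correlated between −0.159 and 0.123 over groups. These correlations cannot tell whether the numbers pair the libraries, which was not tested further.

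The 66 calls between groups became 65 with RLE, 63 with DESeq2, 83 with no filter, 68 with a stricter gate (5 pairs, without the sheath pair, which otherwise hold 57), 66 in the control libraries alone, 40 at equal depth and 60 to 69 with 1 library left out. By pair, equal depth gave 6 for bulge, 3 for upper follicle and 11 for suprabasal against basal-like cells and 5 for sheath-like against fibroblast-like cells. No filter gave 11 for the endothelial pair, and the stricter gate 13 for upper follicle-like cells. Leave-one-out ranges were 13 to 15 (papilla), 6 to 9 (sheath), 18 to 22 (suprabasal), 4 to 8 (upper follicle), 13 to 15 (bulge) and 4 to 5 (endothelial). The 70 member and group combinations at 100 CPM or more became 68 with a mean over cells, 69 with a stricter gate and 68 to 70 with 1 library left out.

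Of 687 alternative values of single members, 591 kept direction and call, 92 lost the call, 1 gained it (Serpine2 in papilla-like cells, 1.02 in cells of at most 15000 UMIs) and 3 changed sign. These were Serpinh1 in papilla-like cells (0.0081 at equal depth, 0.11 in cells of at most 15000 UMIs) and Serpina3f in suprabasal-like against basal-like cells (0.20 in the control libraries alone). Members with few UMIs limit what the depth can show. The differences of genotype effects were tried under settings chosen after the data were seen. The call held under 11 of 11 settings for Serpinf1, 3 of 11 for Serpinb8 (0.72 to 1.73), 5 of 11 for Serpinb1a (0.70 to 2.66), 6 of 9 for Serpina3f (−3.13 to −1.19) and 8 of 11 for Serpine2 (−3.98 to −1.12).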
